A study of Arabidopsis thaliana with 12 samples.

Results

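The probes described here are the brightest 5% of the 3439 probes on each array in wild-type (WT) Arabidopsis thaliana. They were chosen by the mean deposited intensity over the 6 WT arrays, after 5 probes had been left out of the choice. They comprise 20 probes that name 1 gene, 32 that name several and 120 that name none. The equally long list of the brightest probes of any sample or group is called its top list. The groups were mak3, a mutant of the Columbia 0 ecotype that the labels describe as impaired in N-acetyltransferase activity in the cytoplasm, and WT of the same ecotype, with 6 arrays of total RNA each. The 2 arrays numbered 1 and 2, 3 and 4, or 5 and 6 of a genotype read almost alike, so each such pair was averaged and counted as 1 sample, which leaves 3 mak3 and 3 WT samples. The labels give neither the tissue, the age nor the allele, and do not say whether the samples came from separate plants, so the spread between them may be technical.

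MAK3 is the catalytic subunit of N-terminal acetyltransferase C, an enzyme that acetylates the first residue of proteins as they leave the ribosome. In green plant tissue a small number of nuclear genes supplies a large part of the messenger RNA, above all genes for the light-harvesting antenna, the photosystems and carbon fixation, whose proteins are made in the cytosol and imported into the chloroplast. The intensity of a probe depends on its length and hybridisation as well as on the transcript. The members are therefore called the brightest, and the order among them was not read as an order of transcript abundance. In bulk RNA of this kind, fewer cells of a type and less RNA per cell cannot be told apart.

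Few of the brightest probes can be tied to a gene. The 20 members naming 1 gene, the 32 naming 2 to 5 and the 120 with no gene in the platform annotation stand against 20.4%, 25.7% and 53.9% of the other probes. Probes without a gene thus made up 69.8% of the members, and 15 of the 20 brightest. The top list by the mak3 mean, which the choice did not use, had 21 probes naming 1 gene, 34 naming several and 117 naming none. Of the 20 named members, 5 carry a gene symbol (NdhS, CUTA, CCL, XERICO and CYN) and 15 carry a locus identifier only, and for those no function is given in the annotation used. The functions that dominate the brightest transcripts can therefore not be stated for most of them.

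Among the gene lists, no function held more than 1 named member. The list of electron transport and the NDH complex of the chloroplast had 1 member among 6 named probes, the signalling list had 1 among 9, and the list of amino acid, lipid, sugar and nucleotide metabolism had 1 among 12. The lists of the Calvin cycle, tetrapyrrole and carotenoid synthesis, chaperones and proteases, antioxidant enzymes, transcription, organelle RNA processing and the cell wall had 0 members among 2, 4, 6, 4, 12, 6 and 5 named probes. The lists were filled by gene symbol, which 94 of the 692 probes naming 1 gene carry, 5 of them members. Of the 692 probes, 620 were in no list, as were 17 of the 20 named members. The 15 members with a locus identifier only could not enter a list, so a count of 0 says nothing about them. Of all 692 probes naming 1 gene, 20, or 2.89%, were members, but that share covers a wider pool than the lists.

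Light harvesting and the photosystems had 6 named probes, of which 3 were bright enough for the WT top list but belong to the 5 left out. PSBW, the W subunit of photosystem II, stood at rank 13 of all 3439 probes, LHB1B2, a chlorophyll-binding antenna protein, at rank 25, and PSAN, the N subunit of photosystem I, at rank 56. Their deposited intensities averaged 23.0 ± 8.83 in mak3 and 23.4 ± 8.75 in WT for PSBW, 10.2 ± 3.89 in mak3 and 11.5 ± 2.29 in WT for LHB1B2, and 4.15 ± 0.868 in mak3 and 4.99 ± 0.795 in WT for PSAN (SD, n = 3 samples each). The other left-out probes name AT3G13150 and AT1G74470, at ranks 96 and 165. Both were in no list, since they carry a locus identifier only. AT1G74470 is a gene of chlorophyll synthesis, so the count of 0 for the list of tetrapyrrole synthesis does not cover it. The 3 other photosystem probes lay outside the top list, with PSBY at rank 235, PSB27 at rank 531 and LPA19 at rank 975. The Calvin cycle enzymes PRK and SBPASE were at ranks 749 and 835. Not every probe naming a gene of photosynthesis thus ranked high in intensity on these arrays. These ranks are of single probes and were not read as transcript abundance.

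Brightness fell off steeply within the set. The WT mean was 97.6 for the brightest probe, number 2869, 37.3 at rank 8, 14.0 at rank 20, 3.53 at rank 86 and 2.07 for the last member, while the median probe of the table had 0.600. In all, 7 members had a WT mean of 50 or more, 20 lay between 10 and 50, 26 between 5 and 10, and 119 under 5. At the lower edge there was no gap. The last members inside were AT4G39690 at 2.11, probe 1659 at 2.08, CYN at 2.08 and probe 1999 at 2.07, and the first probes outside were probe 3841 at 2.07, probe 1834 at 2.05, probe 4413 at 2.03 and AT3G09080 at 2.03.

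None of the 7 brightest probes names a single gene, and 5 of them name none. The deposited values have an upper limit of 100, which 3 of these probes reached (within 0.001). Probe 2869 was at the limit on 2 of 6 mak3 arrays and 4 of 6 WT arrays, probe 3499 on 4 mak3 arrays and 3 WT arrays, and probe 1431 on 2 mak3 arrays and 0 WT arrays, so differences of these 3 probes may be cut short. In the sample from mak3 arrays 1 and 2 all 3 were below the limit, at 57.4, 37.2 and 53.5. The other 4 stayed under the limit on every array. Probe 812 was at 41.9, 89.7 and 74.6 in the mak3 samples of arrays 1-2, 3-4 and 5-6, against 81.9, 74.8 and 50.1 in the WT samples, and probe 621 was at 26.4, 80.9 and 89.9 in mak3, against 52.1, 68.6 and 78.8 in WT. Probe 4141 was at 39.0, 50.2 and 49.6 in mak3, against 45.2, 68.4 and 63.3 in WT. Probe 1803, which names several genes, was at 61.4, 96.1 and 84.1 in mak3, against 52.4, 67.5 and 47.6 in WT. The genotypes overlapped in each of these 4, and all 4 had their lowest mak3 value on arrays 1-2. No member was listed at 0 on any array.

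The members held a large part of the summed intensity. They took 33.9%, 46.2% and 50.8% of the sum in the mak3 samples of arrays 1-2, 3-4 and 5-6, and 38.1%, 43.4% and 40.3% in the WT samples. The means were 43.6% ± 8.76 in mak3 and 40.6% ± 2.62 in WT (SD, n = 3 each), and the range of mak3 covered that of WT. The 8 brightest alone held 11.1%, 18.2% and 19.4% in mak3, and 15.4%, 16.5% and 15.2% in WT. The lowest mak3 value of both came from arrays 1-2.

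NdhS (AT4G23890) encodes the ferredoxin-binding part of the NADH dehydrogenase-like complex of chloroplasts, which passes electrons from ferredoxin back to the plastoquinone pool. Its deposited intensity was 6.85, 5.29 and 4.73 in the mak3 samples of arrays 1-2, 3-4 and 5-6, against 3.48, 4.48 and 4.48 in the WT samples. As deposited the genotypes did not overlap, but in the normalized values they did, with mak3 minus WT differences of 1.13, 0.18 and -0.09 on the log2 scale in the 3 pairs. It stood at ranks 32 to 67 in mak3 and 62 to 76 in WT.

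CUTA (AT2G33740) is the plant relative of the bacterial CutA1 protein, which is linked to tolerance of divalent metals. It was at 1.47, 7.22 and 9.45 in mak3 and at 3.18, 7.94 and 9.24 in WT. The sample of arrays 1-2 was the lowest of both genotypes. The genotypes overlapped, and the rank went as low as 333 in mak3 arrays 1-2 against 32 to 82 in WT.

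CCL (CCR-like, AT3G26740) gives a short-lived messenger RNA under circadian control. Its deposited intensity was 3.06, 3.82 and 4.30 in mak3, against 3.50, 5.96 and 6.01 in WT. Within every pair the mak3 sample was lower, by log2 differences of -0.44, -0.74 and -0.56 after normalization, and the normalized samples did not overlap.

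XERICO (AT2G04240) encodes a small RING-type protein that raises abscisic acid levels and drought tolerance when it is overexpressed. It was at 4.89, 3.05 and 4.07 in mak3 and at 2.01, 2.51 and 3.48 in WT. The mak3 sample was the higher of each pair, but the genotypes overlapped, since mak3 arrays 3-4 lay below WT arrays 5-6.

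CYN (AT3G23490) encodes cyanase, which breaks down cyanate to ammonia and carbon dioxide. It was at 0.685, 1.61 and 1.28 in mak3, against 1.79, 2.78 and 1.67 in WT. All 3 mak3 samples lay below all WT samples. It ranked 1462, 247 and 313 in mak3, and 184, 128 and 230 in WT, so it was in the top list of 1 sample in 6.

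Of the genes known by locus only, the 4 brightest stayed within the first 30 ranks in every sample. AT3G09850, the brightest probe with a single gene, was at 55.2, 42.5 and 51.3 in mak3 and at 34.5, 42.3 and 34.9 in WT, with ranks 3 to 8. AT2G27290 was at 17.4, 22.6 and 35.03 in mak3 and at 20.9, 26.0 and 28.8 in WT, with ranks 10 to 14. AT4G31530 was at 36.1, 26.2 and 39.1 in mak3, against 14.3, 23.7 and 26.7 in WT, with ranks 9 to 16. For AT4G31530 the WT sample of arrays 1-2 was the lowest of all 6. AT4G17070 was at 8.70, 11.8 and 17.4 in mak3 and at 7.73, 10.9 and 13.6 in WT, and arrays 5-6 were the highest in both genotypes.

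A group of loci was dim on arrays 1-2 of both genotypes. AT1G62250 was at 1.66, 10.98 and 11.3 in mak3 and at 4.01, 10.4 and 9.62 in WT. AT4G19900 was at 1.91, 4.62 and 5.85 in mak3 and at 2.29, 3.95 and 4.54 in WT. AT1G21660 was at 0.950, 2.78 and 2.78 in mak3 and at 1.36, 2.52 and 2.69 in WT. In each of these the mak3 sample of arrays 1-2 lay below its WT partner. AT4G31470 and AT4G39690 were also lowest on arrays 1-2 in both genotypes, at 1.57 and 2.26 in mak3 and 2.16 and 1.47 in WT, within ranges of 1.57 to 3.45 and 2.26 to 3.68 in mak3 and of 2.16 to 3.05 and 1.47 to 2.57 in WT.

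AT1G35510 and AT2G40980 each had samples far from the others. AT1G35510 was at 13.6, 4.22 and 2.95 in mak3, against 2.55, 2.71 and 1.72 in WT. As deposited the genotypes did not overlap, but in the normalized values they did. Its mak3 arrays 1-2 were at 3.79 times the mean of the other mak3 samples. AT2G40980 was at 2.17, 3.88 and 0.620 in mak3 and at 3.58, 4.39 and 0.679 in WT. There it was arrays 5-6 that stood apart in both genotypes, at ranks 974 in mak3 and 1462 in WT.

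AT4G39760 was the steadiest of the named members, at 3.19, 2.74 and 3.25 in mak3, against 3.65, 3.50 and 3.78 in WT. Its coefficient of variation over the WT samples was 3.89%, against a median of 19.5% for all members. The 3 mak3 samples lay below all 3 WT samples. The others, AT2G33180, AT3G26630 and AT4G00870, had deposited intensities of 1.73 to 4.11 in mak3 and 1.87 to 3.60 in WT and overlapped between the genotypes.

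Members near the head of the set were in the top lists of the samples more often than those near its end. In the mak3 samples, which had no part in the choice, 120, 147 and 152 of the members were in the top lists of arrays 1-2, 3-4 and 5-6. In the WT samples, which chose them, the counts were 146, 163 and 156. In all, 98 members were in the top lists of all 6 samples, and the 33 brightest members all belonged to these. Their ranks still moved: probe 3505, at WT rank 9, ranged from rank 9 to 83 over the 6 samples, and probe 3205, at WT rank 19, from 16 to 135. Probe 909, at WT rank 40, ranked 119, 24 and 2479 in mak3, and 43, 22 and 1883 in WT. Of the 43 members at WT ranks 1 to 43, 39 were in the top lists of all 3 mak3 samples. The count was 33 of 43 at ranks 44 to 86, 21 of 43 at ranks 87 to 129, and 9 of the last 43. Only 5 members were in the top list of no mak3 sample.

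When equally many probes were chosen on the other WT samples, 139, 161 and 148 of them were in the top list of the WT sample left out, for arrays 1-2, 3-4 and 5-6. The same probes gave 116, 146 and 145 in the mak3 samples of these numbers. Between the top lists, the mak3 and WT samples of arrays 5-6 shared 154 probes (89.5% of each list), those of arrays 3-4 shared 152 (88.4%) and those of arrays 1-2 shared 126 (73.3%). Samples of the same genotype shared 109, 116 and 149 probes in mak3 and 140, 131 and 153 in WT. The lists that shared least were those of mak3 arrays 1-2 and mak3 arrays 3-4. The 2 arrays of a single sample shared 161 to 168 probes of their top lists.

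Repeat readings of a member differed little. The median coefficient of variation of the 2 arrays of a sample was 3.31% for members and 5.40% for the other probes in mak3, and 3.54% and 4.98% in WT. Between samples it was larger, at 30.1% for members and 26.2% for the other probes in mak3, and 19.5% and 23.7% in WT. In mak3, 44 members, or 25.6%, had a coefficient above 50%, against 14.2% of the other probes. In WT it was 10 members, or 5.81%, against 9.41%.

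The wider spread in mak3 lay in arrays 1-2. There 49 members, or 28.5%, were at less than 0.5 times the mean of the other mak3 samples, against 4.24% of the other probes. In the WT sample of arrays 1-2 this held for 23 members, or 13.4%, against 8.50%, and 19 members were low in both. The other probes of mak3 arrays 1-2 moved the opposite way. Their median ratio to the other mak3 samples was 1.27, against 0.700 for the members. The deposited array means all lay between 0.946 and 1.05, so a smaller sum of the members goes with a larger sum of the other probes. The 2 shifts are therefore not separate observations. Of the other probes 13.1% were above 2 times the other mak3 samples, as were 11 members. Across the members, the log2 ratio of arrays 1-2 to the other pairs correlated between mak3 and WT at Pearson's r = 0.650, as it did for arrays 3-4 at 0.662 and arrays 5-6 at 0.800. These are correlations across probes read on the same 6 samples, given as a description. On arrays 3-4 and 5-6 of mak3, 2 and 6 members were at less than 0.5 times the other samples. These were 1.16% and 3.49% of the members, against 3.08% and 14.0% of the other probes. Of the 49 members low in mak3 arrays 1-2, 37 have no gene, 6 name several and 6 name 1: CUTA, AT1G62250, AT4G19900, AT4G31470, AT1G21660 and CYN.

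With limma, 0 of the members passed at an adjusted p under 0.05 in mak3 against WT, and 0% of all 3439 probes did (n = 3 against 3). The WT arrays that chose the members also enter this difference, so it is given as a description. At an unadjusted p under 0.05 there were 4 members higher and 6 lower in mak3, where all probes gave 1.8% higher and 2.12% lower. The median mak3 minus WT difference of the members was -0.17 on the log2 scale, with 60 higher and 112 lower. The median of all 3439 probes was 0.00, with 1607 higher and 1832 lower. In arrays 1-2 the median of the members was -0.33, in arrays 3-4 -0.08 and in arrays 5-6 -0.03. The SD of the differences was 0.93, 0.27 and 0.28 for the members, against 0.45, 0.39 and 0.45 for all probes. In 24 members the difference was above 0 in all 3 pairs and in 55 below, or 45.9% together, against 36.5% of all probes. All 3 normalized mak3 samples lay above all WT samples for 4 members and below for 21, against 3.2% and 4.07% of all probes. As deposited the split ran the other way, with 9 members above and 5 below, against 1.45% and 8.23% of all probes.

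The sign of that median depended on how the arrays were scaled. Scaled to a common median the members were at 0.20, as deposited at -0.03 and after quantile normalization at -0.17. The median of all probes was 0.01 after median scaling and -0.19 as deposited. The members thus lay above the median of all probes in both of these, and below it after quantile normalization. Without the mak3 sample of arrays 1-2 the median of the members was -0.014 after quantile normalization. With the 12 arrays taken singly, 1 member passed (probe 2005, which names several genes), against 0.698% of all probes. With the pair number as a block, 0 members passed against 0% of all probes, and 24 members had an unadjusted p under 0.05 against 13.4%. The members were also rechosen on the other WT samples, so that the WT sample in the difference had no part in the choice. After quantile normalization the medians were then -0.34, -0.08 and -0.015 for arrays 1-2, 3-4 and 5-6, with 61, 66 and 78 of the probes higher in mak3. As deposited the same probes had medians of -0.18, -0.013 and 0.14. The medians over all probes above 0 were 0.03, -0.17 and -0.47 as deposited, so the rechosen probes lay below them on arrays 1-2 and above them on arrays 3-4 and 5-6. With members chosen on the mak3 arrays the median after quantile normalization was -0.05, and with all 12 arrays -0.10.

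Of the 20 named members 8 were higher and 12 lower in mak3, and 0 passed the test in limma, whose smallest adjusted p among them was 1. CCL, at -0.58 ± 0.18, and AT4G31530, at 0.57 ± 0.20, were the 2 with an unadjusted limma p under 0.05, at 0.0238 and 0.0353. When limma blocked on the pairs, AT4G31530 had an unadjusted p of 0.0937, and the 3 named members under 0.05 were CCL at 0.00644, AT4G39760 at 0.00302 and AT4G39690 at 0.00332, each with an adjusted p of 0.355. AT4G39760 was at -0.40 ± 0.16, CYN at -0.91 ± 0.43 and CUTA at -0.68 ± 0.80. On the other side AT1G35510 was at 1.25 ± 0.77, AT4G39690 at 0.49 ± 0.28, XERICO at 0.48 ± 0.30 and AT3G09850 at 0.46 ± 0.30 (log2, SE of limma, n = 3 against 3). Each SE given here is from the fit without the block, so it includes the spread between pairs. Over 15 other ways of fitting, CCL went from -0.73 to -0.21, CYN from -1.17 to -0.48, AT4G31530 from 0.36 to 0.90 and AT1G35510 from 0.44 to 1.76. In 10 of the 20 both signs occurred: AT1G62250, CUTA, AT2G27290, AT4G19900, AT2G40980, AT2G33180, AT4G31470, AT3G26630, AT4G00870 and AT1G21660. Of these, AT2G40980 ran from -1.26 to 0.26, CUTA from -1.14 to 0.12 and AT2G27290 from -0.18 to 0.16.

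By the mak3 mean, 151 members stayed in the top list and 21 did not. The named ones that did not were AT2G40980, AT4G00870, AT1G21660 and CYN. The named probes that took their places were AT4G35660, with a mean of 4.50 in mak3 against 0.794 in WT, AT4G32060, with 2.89 against 1.67, AT1G51350, with 2.45 against 0.733, AT5G58330, with 2.35 against 1.30, and AT3G09080, with 2.32 against 2.03. These were picked by their mak3 level, so a higher mak3 value follows from the choice.

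The members were not spread evenly over the probe numbers, which run from 1 to 4607. Numbers that leave a remainder of 1 when divided by 6 gave 59 members among 590 probes. Remainder 5 gave 38 of 620, or 6.13%, remainders 2, 3 and 4 gave 2.60%, 3.96% and 4.29%, and remainder 0 gave 4 of 261, or 1.53%. Of the 20 brightest members, 9 had remainder 1 and 0 had remainder 0. The top list by the mak3 mean had 51 probes of remainder 1 and 6 of remainder 0. Of the members with a probe 6 numbers above them, 15.5% had a member there, and the share was 15.5% at a step of 12 and 18.8% at a step of 288, the highest share among the steps from 25 to 600. It was 2.22% to 9.60% at the steps up to 24 that are no multiple of 6.

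Of the 49 members that were low in mak3 arrays 1-2, 25 had remainder 1, as did 15 of the 23 that were low in WT arrays 1-2. Among all members 59, or 34.3%, had remainder 1. No source used here says what the numbers stand for on the array, and the part of position in the brightness was not tested. The remainder was looked at after the values had been seen.

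Other probes for the same gene gave other ranks. AT4G31530 at rank 14 is also 1 of 3 genes named by a probe at rank 306, AT3G26630 at rank 144 is 1 of 2 genes of a probe at rank 759, and AT1G35510 at rank 149 is 1 of 3 genes of a probe at rank 411. Of the 32 members with several genes, 4 have another probe with the same set of genes. Probes 1652 and 938 are such a set with both in the top list, at ranks 60 and 114, while the partners of probes 3179 and 1033, at ranks 129 and 159, were at ranks 614 and 1940.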

How the data were processed

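The deposited table holds 1 intensity per probe and array. No source used here gives the steps by which the authors turned scans into these deposited intensities, background correction and scaling among them. Values are linear, are never negative and end at 100. Array means lay between 0.946 and 1.05 and array medians between 0.420 and 0.605. The number of arrays limits the precision.

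Ranks, shares and levels used the values as deposited. For mak3 against WT quantile normalization (limma 3.58.1, R 4.3.3) was applied across arrays, values under the 1st percentile of positive values (0.0412) were set to it, and log2 was taken. Arrays of 1 sample deviated together from the genotype mean (r = 0.758 to 0.883, at most -0.0645 for other arrays of the genotype) and were averaged. The test per probe was limma's lmFit and eBayes (two-sided), and p-values were adjusted over all 3439 probes by Benjamini-Hochberg. Same-numbered mak3 and WT samples deviated together (r = 0.602, 0.557 and 0.739), which makes the numbers a pairing; this comes from the data, not from the labels.

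The 5 left-out probes were taken off before the 172 were chosen. All members naming 1 gene are named, through the platform annotation and a RefSeq gene table (TAIR10.1), and genes were put in lists by symbol. The members and lists were chosen with earlier results of these data known. No list had a set test. The fit was also run on simulated data in which all samples were independent. That check lacks the pairing of same-numbered samples, so it does not show how the fit behaves with it.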

Additional observations from a re-analysis of the deposited data

How the results depend on the processing

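The count of called probes was 0 in limma under 14 of 15 other ways of fitting. With each of the 12 arrays as its own sample, 24 of 3439 probes and 1 member were called. That member was probe 2005, which names several genes, at -0.89 on the log2 scale (adjusted p = 0.0345 in limma); this fit counts each sample 2 times. With the pair number as a replicate block the count was 0 of 3439 probes and 0 members (smallest adjusted p = 0.355), the median of the members was again -0.17, and 24 members had an unadjusted p under 0.05, where 13.4% of all probes did. The block changed no call. The median difference of the members was 0.20 under scaling to 1 common median. Choosing the members on the other WT samples was an alternative added after seeing the data. After quantile normalization it gave medians of -0.34 in arrays 1-2, -0.08 in arrays 3-4 and -0.015 in arrays 5-6. As deposited these were -0.18, -0.013 and 0.14. Leaving out 1 sample at a time gave medians of -0.24 to -0.014 after quantile normalization, with 0 calls in each fit. The cause of these shifts was not tested. Of the members, on average 90.1% were in the top list of a WT sample, 84.1% when they were chosen on mak3 and 83.4% when 10% of the probes were taken on both sides. The share of the summed intensity in WT was 34.1% for 86 probes and 48.3% for 10% of the probes, which follows from their number. Among 300 differences of the named genes under these fits, 40 moved by at least the SD between pairs. An exact test of 3 samples against 3 cannot go below 0.1. No background signal was used here, so none of the intensities is set against one.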
